A study of Danio rerio with 8 samples.

Results

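Troponin genes of the slow and cardiac type were followed through tail muscle of runx2b-/- zebrafish and of wild type zebrafish. The family was taken by gene symbol from the deposited count table, which gave 9 genes out of 25279 symbols: tnnc1a, tnnc1b, tnni1a, tnni1b, tnni1c, tnni1d, tnnt1, tnnt2a and tnnt2e. Bulk RNA came from muscle together with intermuscular bone, the thin bones that form inside the connective tissue between muscle segments. There were 3 runx2b-/- and 3 wild type libraries, all from fish aged 60 dpf (days post fertilization), and fish of both genotypes carry the transgene Tg (sp7/eGFP). runx2b encodes a Runx2 transcription factor of bone-forming cells, and the series asks which genes go with the formation of these bones. A single-cell sample of each genotype was not analysed here. The labels do not say whether the libraries of a genotype stem from different fish or pools. The p-values therefore describe the scatter among these libraries, part of which may be technical.

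Troponin is the calcium switch of striated muscle. Troponin C binds calcium, troponin I holds the thin filament in its inhibited state until calcium arrives, and troponin T anchors the complex to tropomyosin. Fibre types use different genes for each subunit: in mammals TNNC1 serves slow skeletal fibres and heart, TNNI1 and TNNT1 serve slow skeletal fibres, and TNNT2 serves the heart. Zebrafish carry several copies of most of these genes. tnnt2a is the zebrafish cardiac troponin T gene, whose loss stops the embryonic heartbeat (silent heart).

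Library totals ran from 17280098 to 20482003 counts, and the 9 genes together held 0.446% to 0.623% of counts in mutant libraries and 0.401% to 0.793% in wild type libraries. All 8 fast fibre markers were present in every library at a summed 314701 to 456103 CPM in the mutant and 298495 to 449478 CPM in wild type. CPM is the usual depth-scaled count, here on library sizes scaled by trimmed mean of M-values (TMM), and RPKM is CPM per kilobase of the gene model. The slow fibre markers found in the table (smyhc1, smyhc2, prox1a, myl13 and myl10) summed to 6626 to 6894 CPM in mutant libraries and 5355 to 7408 CPM in wild type libraries, so the wild type libraries spread more widely than the mutant ones. runx2b itself had 4, 2 and 6 counts in mutant libraries 1 to 3, against 2, 2 and 6 counts in wild type libraries 1 to 3, which is too few to check the genotype. Bulk tissue cannot tell fewer cells of a type from less RNA per cell.

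Per length, tnnt2e, tnnc1b and tnni1c carried nearly all of the family's signal. The mean RPKM in mutant and in wild type libraries was 1773 ± 108 and 1843 ± 438 for tnnt2e, 1595 ± 137 and 1864 ± 403 for tnnc1b, and 529 ± 60.7 and 530 ± 182 for tnni1c (SD, n = 3 each). Over all libraries tnnt2e stood at place 39 and tnnc1b at place 42 among all symbols by mean RPKM, and tnni1c at place 102. Below them came tnni1d at 87.4 ± 10.02 and 108 ± 19.8 RPKM and tnnt1 at 61.5 ± 3.57 and 54.3 ± 6.76 RPKM in mutant and wild type. tnni1b and tnnt2a were rarer still, at 7.35 ± 0.208 and 2.36 ± 1.80 RPKM in the mutant, against 5.44 ± 1.16 and 11.4 ± 2.27 RPKM in wild type.

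The order of tnni1b and tnnt2a differed between the genotypes. tnni1b lay above tnnt2a in the mutant libraries and below it in the wild type libraries, and the RPKM ranges of these 2 genes did not overlap in either group. tnnt2e and tnnc1b had overlapping RPKM ranges in both groups and cannot be ordered, and neither can tnni1a and tnnc1a. All other neighbours in the order were separated in both groups.

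**Figure D1:**
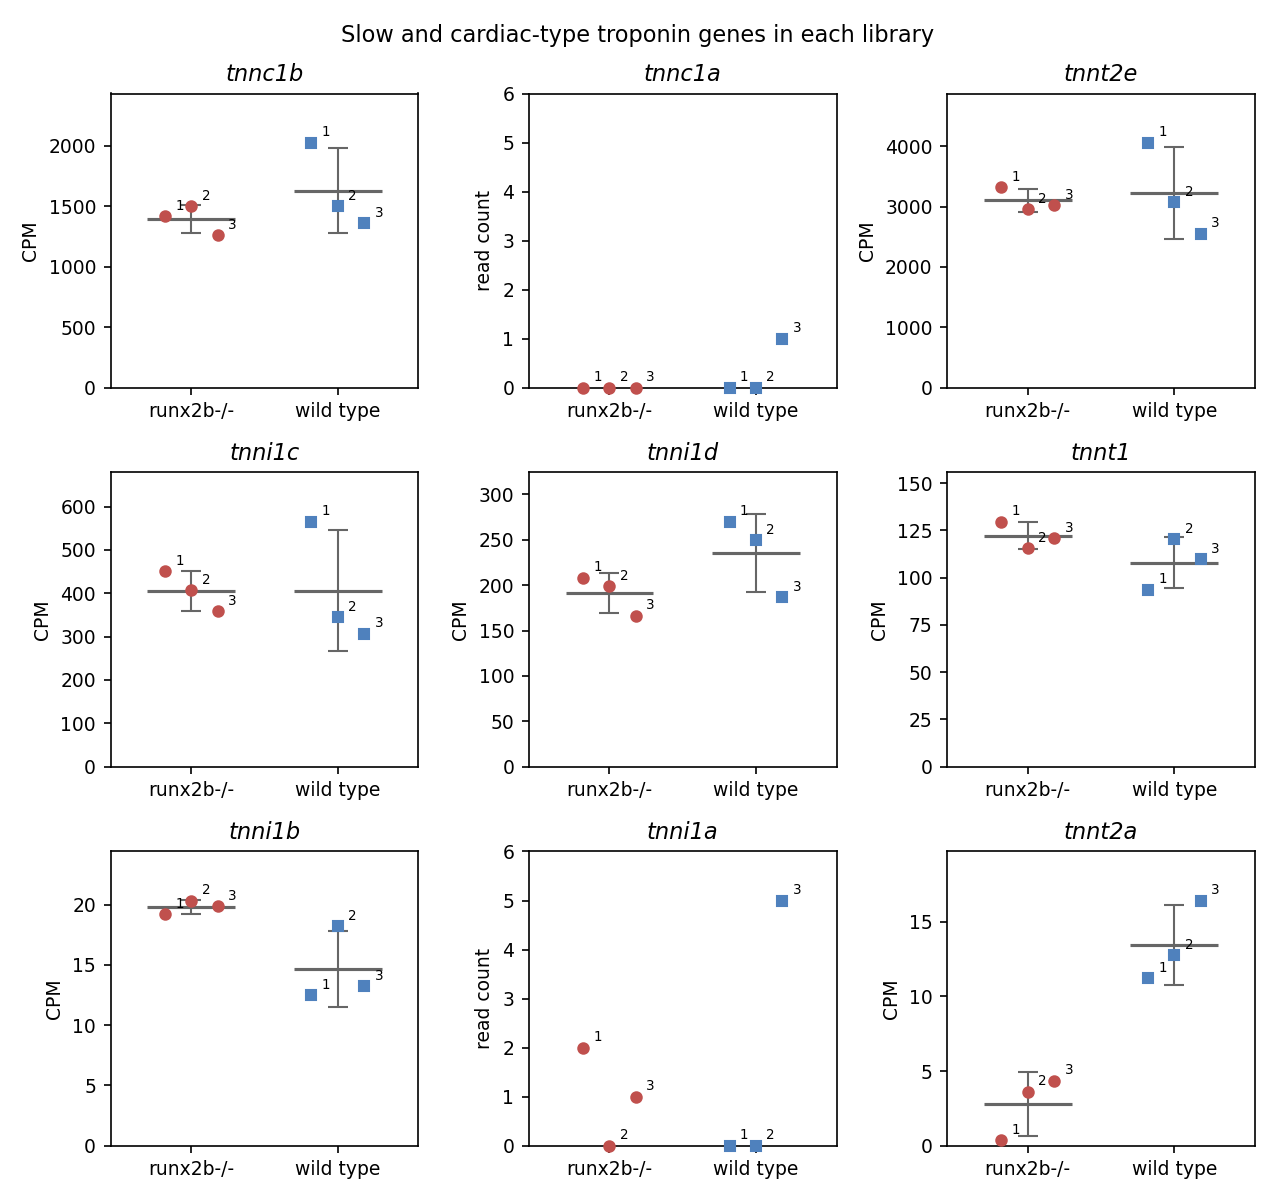
Level of each of the 9 genes in the 3 runx2b-/- libraries (circles) and the 3 wild type libraries (squares), with the replicate number beside each point. The y axis is CPM with the mean and SD as lines, except for tnnc1a and tnni1a, which are shown as read counts without a mean. The genotypes overlap in all panels but 2: tnni1b, where mutant libraries lie above wild type, and tnnt2a, where the mutant libraries at 0.372 to 4.36 CPM lie below the wild type libraries at 11.2 to 16.4 CPM.

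By edgeR's quasi-likelihood test over all tested genes, with Benjamini-Hochberg adjustment, no member passed the threshold for a genotype difference. The low-count filter passed 7 of the 9 genes, and of these 0 were called higher and 0 lower at an adjusted p under 0.05, while 2 had an unadjusted p under 0.05 (tnni1b and tnnt2a), as did 19.4% of all tested genes. DESeq2 called 0 of the 7, and limma voom called 1, tnnt2a. Over all 14107 tested genes edgeR called 1.76% higher, 1.62% lower and 3.37% in either direction. The CPM ranges of the genotypes did not overlap for 2 of the 7 members, against 24.6% of all tested genes. The median log2 fold change was -0.06 over the 7 members and -0.01 over all tested genes.

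**Figure D2:**
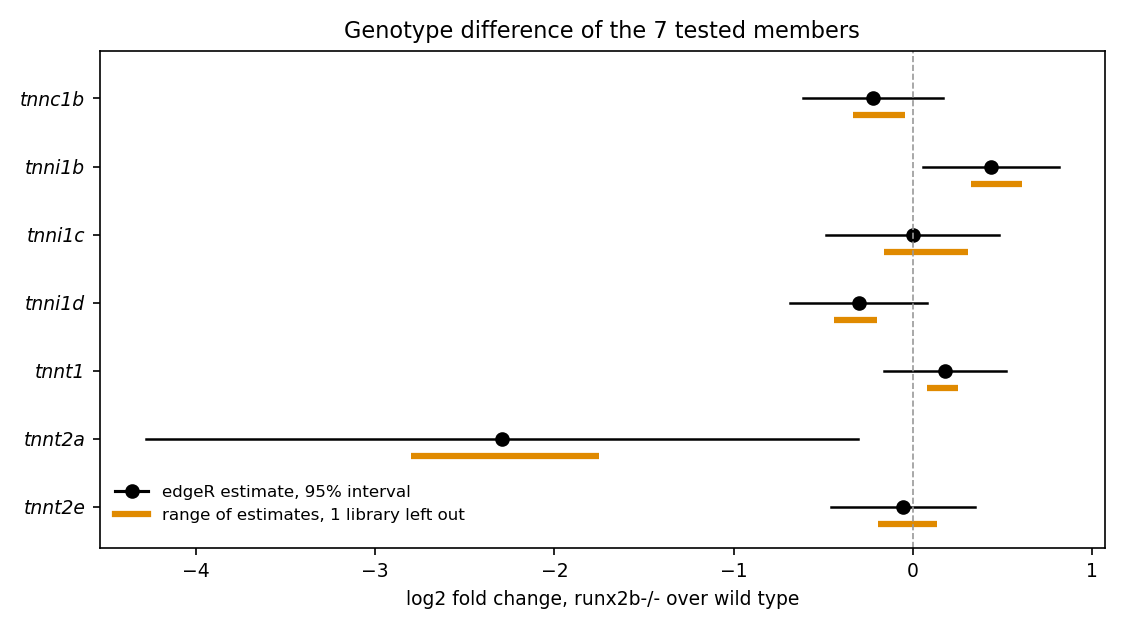
Log2 fold change of runx2b-/- over wild type (x axis) for the 7 genes that passed the low-count filter. Black points and lines are the edgeR estimate and its 95% interval, and orange bars span the estimates obtained with 1 library left out. The estimate for tnnt2a, -2.29, has an interval from -4.28 to -0.31, and the other 6 estimates lie between -0.30 and 0.43.

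Of the 2 troponin C genes in the family, tnnc1b (chromosome 23, 20183743 to 20186253, plus strand) held nearly all reads. It encodes the calcium-binding subunit and had 1419, 1499 and 1264 CPM in mutant libraries 1 to 3, against 2027, 1502 and 1357 CPM in wild type libraries 1 to 3. Wild type library 1 was the highest of the 6, and the other wild type libraries lay within or close to the mutant range. The log2 fold change was -0.22 (SE 0.18, edgeR adjusted p = 0.541), a fold of 0.856 with a 95% interval of 0.653 to 1.12. Without wild type library 1 it was -0.0445 (adjusted p = 0.917).

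The cardiac troponin C gene tnnc1a (chromosome 23, 4955108 to 4960291, plus strand) was all but undetected. It had 0 counts in each mutant library, against 0, 0 and 1 count in wild type libraries 1 to 3. A count of 0 over the mutant group allows a level of up to 0.0532 CPM (3 counts over the 3 libraries, counting error only). It did not pass the filter, and no fold is given.

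Among the troponin I genes, which encode the inhibitory subunit, tnni1c (chromosome 18, 6484983 to 6494059, minus strand) held 84.8% ± 0.406 of the summed RPKM of the 4 tnni1 genes in the mutant and 81.8% ± 3.19 in wild type (SD, n = 3 each). Its CPM were 451, 407 and 358 in mutant libraries 1 to 3, against 565, 346 and 307 in wild type libraries 1 to 3. The wild type libraries lay on both sides of the mutant ones, and the means were 405 ± 46.5 CPM in the mutant and 406 ± 139 CPM in wild type. The fold was 0.999 with a 95% interval of 0.716 to 1.39 and an adjusted p of 0.998. The estimate changed sign under 6 of 15 alternative settings and reached 0.305 without wild type library 1.

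tnni1d (chromosome 4, 26368161 to 26372775, plus strand), second to tnni1c by level among the 4 tnni1 genes, had 208, 199 and 167 CPM in mutant libraries 1 to 3, against 270, 249.9 and 187 CPM in wild type libraries 1 to 3. Wild type library 3 lay inside the mutant range, and the other wild type libraries lay above it. The log2 fold change was -0.30 (SE 0.18, edgeR adjusted p = 0.380), with a 95% interval of the fold from 0.623 to 1.06. The share of tnni1d among the tnni1 genes was 13.8% to 14.4% of summed RPKM in mutant libraries and 14.3% to 19.97% in wild type libraries, and these ranges overlapped.

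tnni1b (chromosome 6, 54796409 to 54816373, minus strand) had 413, 337 and 365 counts in mutant libraries 1 to 3, against 280, 389 and 232 counts in wild type libraries 1 to 3. Scaled, these were 19.2, 20.3 and 19.9 CPM in the mutant, against 12.5, 18.2 and 13.2 CPM in wild type. All mutant libraries lay above all wild type libraries, with wild type library 2 close to the mutant range. The log2 fold change was 0.43 (SE 0.18) and the fold 1.35 with a 95% interval of 1.04 to 1.76, but the edgeR adjusted p over all genes was 0.196. Next to it on the same strand, at a gap of 8444 bases, lies the troponin T gene tnnt2b, with a log2 fold change of 0.41 (SE 0.28, adjusted p = 0.478).

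tnni1a (chromosome 23, 5789118 to 5795512, minus strand) had 2, 0 and 1 counts in mutant libraries 1 to 3, against 0, 0 and 5 counts in wild type libraries 1 to 3. Scaled for library size, the mutant level was 0.652 of the wild type level, with a 95% exact binomial interval of 0.101 to 3.35 that covers counting error only. The filter left this gene out too.

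Troponin T ties the complex to tropomyosin, and its leading gene here was tnnt2e (chromosome 4, 7499687 to 7536058, plus strand), with 96.5% ± 0.129 of the summed RPKM of tnnt1, tnnt2a and tnnt2e in the mutant and 96.4% ± 1.105 in wild type (SD, n = 3 each). It had 3320.4, 2964 and 3029 CPM in mutant libraries 1 to 3, against 4062, 3070 and 2552 CPM in wild type libraries 1 to 3. The mutant libraries sat inside the range of the wild type ones. The fold was 0.962 with a 95% interval of 0.727 to 1.27, and edgeR gave an adjusted p of 0.907. On the log2 scale the estimate was -0.06 (SE 0.19), and it was 0.136 without wild type library 1 and 0.0108 with a correction for gene length.

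tnnt1 (chromosome 3, 32024507 to 32039164, minus strand), the slow skeletal troponin T gene by its mammalian counterpart, had 129.7, 116 and 121 CPM in mutant libraries 1 to 3, against 93.7, 120.3 and 109.7 CPM in wild type libraries 1 to 3. Wild type library 1, the highest library for tnnc1b, tnni1c, tnni1d and tnnt2e, was the lowest for tnnt1 and for tnni1b. The log2 fold change of tnnt1 was 0.18 (SE 0.16, adjusted p = 0.578), with a 95% interval of the fold from 0.896 to 1.43.

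tnnt2a (chromosome 23, 5719252 to 5751200, minus strand), the cardiac troponin T gene, showed the widest difference of the family. It had 8, 60 and 80 counts in mutant libraries 1 to 3, against 251, 272 and 288 counts in wild type libraries 1 to 3. In CPM these were 0.372, 3.62 and 4.36 in the mutant, against 11.2, 12.8 and 16.4 in wild type. Every mutant library lay below every wild type library, and mutant library 1 lay far below the other mutant libraries. The log2 fold change was -2.29 (SE 0.76), which is 4.90-fold lower in the mutant with a 95% interval of 1.24-fold to 19.4-fold, and the edgeR adjusted p was 0.208. Without mutant library 1 the estimate was -1.75 (SE 0.24) with adjusted p = 0.00823, and over all 15 alternatives the adjusted p ran from 0.00823 to 0.410.

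Beside tnnt2a, the markers of other cell types were read in each library. Of 13 heart markers 11 were in the table, and they summed to 12.9 to 17.5 CPM in mutant libraries and 10.7 to 16.5 CPM in wild type libraries. Most of this was vmhc, a ventricular myosin gene, with 745 counts over the mutant and 708 over the wild type libraries. The 3 tested heart markers had edgeR log2 fold changes of 0.17 (vmhc, adjusted p = 0.709), 0.52 (vmhcl, adjusted p = 0.318) and 1.08 (gata4, adjusted p = 0.204). For vmhcl and gata4 every mutant library lay above every wild type library in CPM. Such ranges did not overlap for 24.6% of all tested genes. The heart myosin gene myh6 had 0 counts in each mutant library, against 2, 1 and 38 counts in wild type libraries 1 to 3, and myl7, cmlc1 and nppa were likewise at 0 in the mutant, against totals of 10, 10 and 4 counts in wild type, of which wild type library 3 held 9, 10 and 4. The low-count filter left out myh6, myl7, cmlc1 and nppa. Wild type library 3 also held the only count of tnnc1a and all 5 wild type counts of tnni1a. In wild type libraries 1 and 2 tnnt2a stood at 251 and 272 counts with myh6 at 2 and 1 counts, and without wild type library 3 its log2 fold change was -2.13 (SE 0.88, adjusted p = 0.265).

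The 6 bone markers (sp7, bglap, bglapl, spp1, col10a1a and entpd5a) summed to 2.75, 7.12 and 9.81 CPM in mutant libraries 1 to 3, against 34.4, 35.9 and 50.7 CPM in wild type libraries 1 to 3. This puts the 6 libraries in the same order, lowest to highest, as tnnt2a, with mutant library 1 lowest and wild type library 3 highest. In wild type most of this sum was bglapl and col10a1a, with means of 17.9 and 18.4 CPM. bglap, spp1 and entpd5a overlapped between genotypes, and bglap and spp1 were highest in mutant library 3 (1.25 and 2.78 CPM). Of the single bone markers only col10a1a had the order of tnnt2a. The fast myosin heavy chain gene myhz1.2, the 1 fast fibre marker of 8 that was called lower (log2 fold change -1.27, adjusted p = 0.0476), had that order too, at 1143, 2285 and 2555 CPM in mutant libraries 1 to 3, against 3717, 5196 and 5495 CPM in wild type libraries 1 to 3. Of all 14107 tested genes 43 (0.305%), tnnt2a among them, had this order. Only a gene with every mutant library below every wild type library can have it, and 1655 tested genes were of that kind. Within each genotype, the summed fast fibre markers also rose from library 1 to library 3. Their CPM were 314701, 429641 and 456103 in the mutant, against 298495, 344105 and 449478 in wild type. TMM factors fell from library 1 to library 3 in both genotypes. The other fast myosin heavy chain genes on the marker list were not lower. Outside that list, edgeR called the myosin heavy chain genes myhz1.3 and myha lower. Their log2 fold changes were -1.85 (adjusted p = 0.00726) and -1.75 (adjusted p = 0.0114), and they were found below by their likeness to tnnt2a. By edgeR myhz1.1 stood at a log2 fold change of 0.77 (adjusted p = 0.081), with every mutant library above every wild type library in CPM. myhz2 stood at 0.27 and myhc4 at 0.03, and their ranges overlapped. The split of reads among these myosin genes is uncertain. sp7 had 0 counts in each mutant library, against 4, 2 and 1 counts in wild type libraries 1 to 3, and 1 of the 6 markers, bglapl, was called lower. Red blood cell markers summed to 1339 to 1556 CPM in the mutant and 1054 to 1226 CPM in wild type, with 2 of 4 called higher, and smooth muscle markers to 130.5 to 179 CPM and 118 to 146 CPM, with 0 of 4 tested genes called. The part of bone, heart, blood or fast fibre RNA in the tnnt2a difference was not tested.

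**Figure D3:**
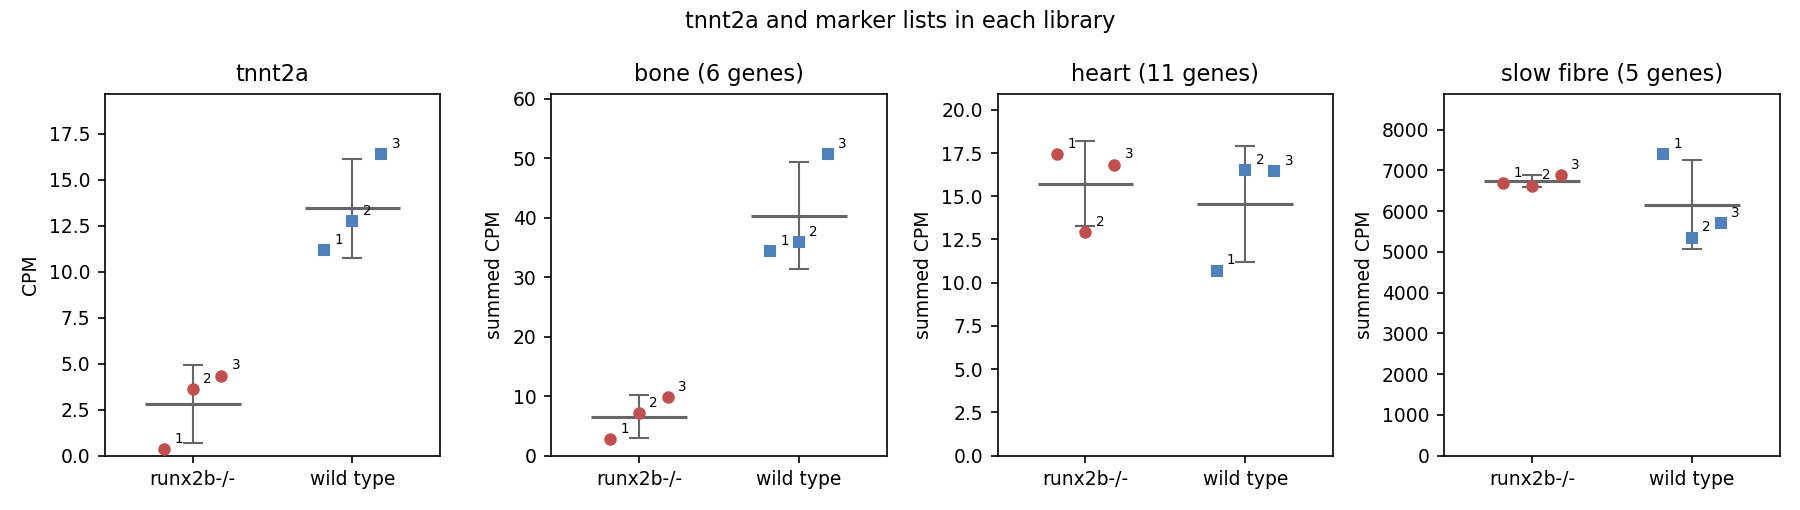
tnnt2a (CPM) and the summed CPM of the bone, heart and slow fibre marker lists in each runx2b-/- library (circles) and wild type library (squares), with replicate numbers, means and SD. tnnt2a and the bone marker sum, which in wild type is mostly bglapl and col10a1a, keep the mutant libraries below all wild type libraries. They share the order of the 6 libraries. The heart sum, which is mostly vmhc, and the slow fibre sum overlap between genotypes. The heart markers myh6, myl7, cmlc1 and nppa had 0 counts in each mutant library, and wild type library 3 held most of their wild type counts.

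The troponin I gene tnni1a lies 37917 bases from tnnt2a on the same strand and was near 0 in both genotypes. The gene nearest to tnnt2a, lad1 at a gap of 2799 bases, had 1, 2 and 3 counts in mutant libraries 1 to 3, against 2, 4 and 10 counts in wild type libraries 1 to 3. No model among the 9 members overlapped another gene model of the table that lies on a single chromosome. Symbols with exons on several chromosomes were not compared. Whether reads of near-identical paralogs were shared or dropped by the count is not given in the sources used here, so the split among copies is uncertain.

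Set against the summed slow fibre markers of the same library, tnnc1b had a ratio of 0.212, 0.226 and 0.183 in mutant libraries 1 to 3, against 0.274, 0.281 and 0.238 in wild type libraries 1 to 3, and the groups did not overlap. The ratio of tnni1d was 0.0311, 0.02999 and 0.0242 in mutant libraries 1 to 3, against 0.0365, 0.0467 and 0.0328 in wild type libraries 1 to 3, also without overlap. The ratios of tnni1c (0.0602 ± 0.00777 and 0.0648 ± 0.0113) and tnnt2e (0.461 ± 0.0305 and 0.523 ± 0.0671, mutant and wild type, SD, n = 3 each) overlapped between groups. Those of tnni1b (means 0.00294 and 0.00247) and tnnt1 (0.0181 and 0.0181) overlapped too, and those of tnnt2a (0.000411 and 0.00226) did not. The ratio was not taken for all genes. In plain CPM the groups did not overlap for 24.6% of all tested genes. These ratios are descriptions without a test. Their denominator is mostly smyhc2 and smyhc1, whose models of 11567 and 6869 bases fall in the longest of 10 length classes of tested genes, with a median log2 fold change of 0.19, while tnnc1b at 874 bases falls in the shortest class, with a median of -0.11. tnni1c at 766 bases is in that shortest class too, and its ratios overlapped. tnni1d at 2187 bases is in class 4, with a median of -0.07, and its ratios did not overlap. The part of gene length in these ratios was not tested. The models of smyhc1 and smyhc2 overlap, so the split of reads between them is uncertain. With a correction for length the log2 fold change of tnnc1b was -0.125 (adjusted p = 0.765) and that of tnni1d was -0.261 (adjusted p = 0.466).

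Within the whole troponin complex the slow and cardiac-type genes were the minor part. They held 23.0% ± 4.13 of the summed RPKM of 4 troponin C genes in the mutant and 22.6% ± 5.49 in wild type, 6.35% ± 0.914 and 6.60% ± 2.68 of 13 troponin I genes, and 6.29% ± 1.203 and 6.40% ± 2.06 of 8 troponin T genes (mutant and wild type, SD, n = 3 each). The troponin T denominator holds tnnt2b, tnnt2c and tnnt2d, which are not members here though their names place them with TNNT2. Counted with the members, they bring the troponin T share to 9.63% ± 2.09 in the mutant and 9.76% ± 2.87 in wild type. The troponin I denominator holds tnni4a, tnni4b.1 and tnni4b.2, at means of 4.67, 127 and 116 RPKM over all libraries. These are neither members nor listed fast troponins, and the troponin I share with them counted in was not computed. From CPM, without length, the members held 14.7% ± 2.95 and 14.4% ± 3.89 of troponin C, 4.51% ± 0.693 and 4.79% ± 1.83 of troponin I, and 4.14% ± 0.841 and 4.21% ± 1.41 of troponin T in mutant and wild type. Each mean differed between genotypes by less than the SD of either group. The wild type libraries spread more widely than the mutant ones in each class.

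**Figure D4:**
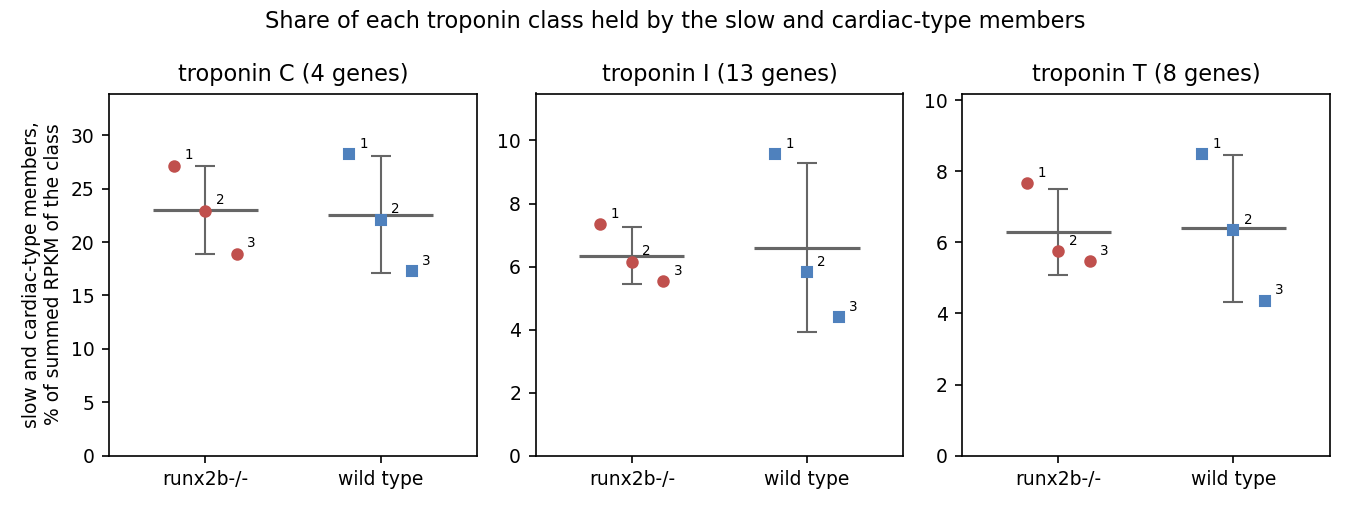
Share of the summed RPKM of each troponin class (y axis, percent) that the slow and cardiac-type genes held in each runx2b-/- library (circles) and wild type library (squares), with replicate numbers, means and SD. The mutant libraries lie within the range of the wild type libraries in all 3 classes, at 18.9% to 27.2% against 17.3% to 28.3% for troponin C.

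The fast troponins, which serve the bulk of trunk muscle, gave no call either. Of 11 listed symbols 9 were in the table and tested. None passed by edgeR (0, and 3 below 0.05 before adjustment, where all tested genes had 19.4%), and DESeq2 and voom called 0. Their median log2 fold change was -0.11. The most abundant were the troponin T gene tnnt3b (-0.04, SE 0.19) and the troponin I gene tnni2a.3 (-0.11, SE 0.18). The other 8 symbols of the table that begin like a troponin, of which tnni3k encodes a kinase rather than a troponin, had 7 tested genes and 0 calls by edgeR, DESeq2 or voom, with 1 at an unadjusted p under 0.05 and a median of -0.07. Among these, the most abundant by CPM were tnnt2d (-0.07, SE 0.17) and tnni4b.2 (-0.32, SE 0.18).

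Of 21 slow fibre genes other than troponins, 20 were in the table and 19 were tested. By edgeR, DESeq2 and voom alike 0 were called, and edgeR put 6 below 0.05 before adjustment, against 19.4% of all tested genes. The median log2 fold change was 0.19, with 12 genes above and 7 below 0. Several of these genes, among them smyhc2, ryr1a and sox6, fall in the longest of 10 length classes. All tested genes of that class had a median of 0.19. Whether gene length had a part in the median of the slow fibre list was not tested. The slow myosin heavy chain gene smyhc2 stood at 0.21 (SE 0.17) and the tropomyosin gene tpm3 at 0.03 (SE 0.18). Without wild type library 1 edgeR called 3 of these genes higher: mb, for the oxygen store myoglobin (0.87, adjusted p = 0.0155), sox6, for a transcription factor of fibre type (0.83, adjusted p = 0.0184), and ryr1a, for a calcium release channel (0.73, adjusted p = 0.0258). In that setting 670 of 14528 tested genes were called (4.61%), 335 of them higher, so calls were more frequent over all genes as well. None of the slow and cardiac-type troponins was called in it.

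Among 23 partners of troponin on the thin filament, 20 were in the table and 19 were tested. Of these edgeR called 1 lower and 0 higher, put 4 below 0.05 before adjustment (19.4% over all tested genes) and gave a median log2 fold change of -0.04. The lower gene was lmod2b, for a leiomodin that helps build actin filaments, at 19.3 ± 4.54 CPM in the mutant and 34.2 ± 6.14 CPM in wild type (log2 fold change -0.82, SE 0.20, adjusted p = 0.0441). Its call ended with limma voom, with library size only, with at least 50 counts in 3 libraries and whenever a library other than wild type 3 was left out. neb, for the giant filament protein nebulin, stood at 0.74 (SE 0.21, adjusted p = 0.0788) and was called higher by DESeq2 (adjusted p = 0.0327). Its model of 19989 bases falls in the longest of 10 length classes, with a median of 0.19 over the tested genes of that class. Neither the main edgeR fit nor the fit with a correction for length called neb, and its estimate under that correction is not given here. The part of gene length in the neb estimate was not tested.

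The genes most like the leading member of each class were found by the root mean square difference of log2 CPM over the 6 libraries, each gene centred on its own mean, among 3256 named genes with at least 10 CPM. For tnnc1b, whose own spread was 0.215, they were otud5b (0.0437), ppp1r1b (0.0486) and hk2 (0.0490). For tnni1c, with a spread of 0.287, they were plpp7 (0.0467), slc25a42 (0.0766) and serhl (0.0768), and for tnnt2e, with a spread of 0.202, yaf2 (0.0540), serhl (0.0644) and smad1 (0.0665). The nearest member to tnni1c was tnnt2e, at place 21 with a difference of 0.120, and the nearest to tnnc1b was tnni1d, at place 78 with 0.119. tnnt2a, added after its values were seen, had a spread of 1.73. Among the genes above the cut of 10 CPM, its nearest were mhc1zaa (0.808), myha (0.831) and myhz1.3 (0.833), the last pair of them myosin heavy chain genes. tnnt2a itself lay below this cut, at a mean of 2.78 CPM in the mutant and 13.5 CPM in wild type. The bone markers bglapl (2.12 and 17.9 CPM) and col10a1a (1.51 and 18.4 CPM) also lay below it. Their distance from tnnt2a was not taken. With 6 libraries of 2 genotypes, these profiles share library depth and group.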

How the data were processed

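The deposited table holds whole-number read counts per gene symbol for 6 bulk libraries, not normalized, with exon positions and a gene length in bases, per the file headers. Per the labels' protocols, RNA was Trizol-extracted and built into stranded mRNA libraries. Cell Ranger and GRCz11 are listed in the submitters' processing notes, with no link to this table; aligner, counter and strand setting are not given in the sources used here, and positions are printed as the table gives them. No sequence is shown. Counts were tested in R 4.3.3 with edgeR 4.0.16 (filterByExpr with a minimum count of 10 and total of 15, TMM, robust quasi-likelihood fit, genotype only, Benjamini-Hochberg over 14107 genes, called at adjusted p under 0.05). The SE is the absolute log2 fold change over the square root of F; 95% intervals use the fit's degrees of freedom. Alternatives used DESeq2 1.42.0, limma 3.58.1 voom, other scalings and filters, a length offset (lowess span 0.3), a replicate block and each library left out. The test was checked on simulated counts. Totals of 17280098 to 20482003 make 3 counts worth 0.134 to 0.181 CPM. Libraries of a genotype differed by more than sampling noise (chi-square over its degrees of freedom 23.2 to 84.8).

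Members, gene lists and the naming rule were chosen with earlier results of these data known. The rule names all members, up to 4 called genes per list or its 2 most abundant, and 3 most similar genes per class. Genes named beyond it (tnnt2b, tnnt2a's similar genes, mb, sox6, ryr1a, neb, lad1, myhz1.2, myhz1.1, myhz2, myhc4, vmhcl, gata4) were chosen after their values were seen.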

Additional observations from a re-analysis of the deposited data

How the results depend on the processing

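No tested member reached a call under 13 of 15 alternatives, and in the other 2 tnnt2a alone was called lower (1 gene against 0): with limma voom (log2 fold change -2.96, adjusted p = 0.0439) and without mutant library 1. Leaving out 1 library at a time gave -2.80 to -1.75 for tnnt2a and 0 to 1 members called lower. Signs changed only for tnni1c (6 of 15) and tnnt2e (2 of 15). In the other lists the number called higher was 1 without a filter for the fast troponins (tnni2b.2) and the slow fibre genes (mb), 1 with the replicate block for the slow fibre genes (mb), and 1 for the thin filament partners (neb) with library size only, without a filter, with DESeq2 and with the replicate block. Without 1 library it ran from 0 to 1 for the fast troponins and the thin filament partners and from 0 to 3 for the slow fibre genes. lmod2b, the 1 lower thin filament gene, left 0 with library size only, with at least 50 counts in 3 libraries and with limma voom, and 0 to 1 without 1 library. Calls over all genes went outside 1.5 times 476 without a filter (1161), with at least 50 counts in 3 libraries (304) and without 1 library (115 to 1225). Without length, members held 14.6%, 4.65% and 4.18% of the troponin C, I and T classes, against 22.8%, 6.47% and 6.35% per length over 6 libraries, the T share was 9.70% with tnnt2b, tnnt2c and tnnt2d counted in (chosen after seeing the data), and tnni1c held 63.4% of the tnni1 genes against 83.3%. Same-numbered libraries did not deviate together (correlations -0.055, 0.035 and 0.031), and the highest correlation of any pair was that of mutant library 2 with wild type library 1 (0.107). The replicate block gave 377 calls against 476 and -2.55 for tnnt2a (adjusted p = 0.170). The cause of these shifts was not tested. Depth limits tnnc1a and tnni1a: without a filter their adjusted p were 0.675 and 0.847, with an SE of 2.08 and 1.36 on the log2 scale.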
